A study of Homo sapiens with 6 samples.

Results

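The heat shock chaperones examined here are 10 genes, HSPA1A, HSPA1B, HSPA8, HSPH1, HSP90AA1, HSPB1, HSPD1, HSPE1, DNAJB1 and BAG3, taken by symbol from the 59008 gene symbols of the deposited expression table. No measured value enters that rule, but the genes were chosen with earlier results of these data known. All 10 were found, and all 10 passed the filter of a mean of at least 1 TPM over the 6 libraries, which 14988 genes passed. TPM, transcripts per 1000000, is a measure of abundance that is scaled for transcript length and for the total of each library, so levels of different genes can be set side by side.

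Heat shock proteins bind unfolded or partly folded proteins and keep them from aggregating until they fold, are handed on or are degraded. HSP70 proteins work in cycles of ATP binding that J-domain proteins start and nucleotide exchange factors end, HSP90 completes the folding of many kinases and hormone receptors, small heat shock proteins hold unfolded clients without ATP, and a chaperonin of HSP60 and HSP10 folds proteins in the mitochondrial matrix. When unfolded proteins build up, heat shock factor 1 (HSF1) binds heat shock elements, inverted repeats of the unit GAA, in the promoters of many of these genes. In tumor cells the same proteins are often abundant and are studied for their part in survival under drugs.

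Hey and SKOV3 are established human ovarian cancer cell lines. For each line the study sequenced untreated parental cells, polyploid giant cancer cells (PGCCs) formed after 500 nM paclitaxel for 16 h and recovery, and daughter cells collected 30 days after the same exposure. The treatment labels give 3 days of recovery for both PGCC libraries, but the SKOV3 PGCC title reads day 7. Each condition was 1 library, each daughter sample is named as clone 1 of its line, and the growth medium differed with the line (MEM Eagle for Hey, RPMI-1640 for SKOV3, both with 10% fetal bovine serum). In RNA of whole cultures, fewer cells of a kind and less RNA per cell cannot be told apart.

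The columns summed to between 911825 and 920497 TPM, and no read counts per gene were used here, so no counting error can be given. The epithelial keratin KRT8 was between 319 and 1052 TPM and the lineage factor PAX8 between 54.7 and 136 TPM in all 6 libraries, whereas EPCAM and CDH1 were at most 1.43 and 0.0283 TPM in Hey. Of 7 fibroblast markers the sum was at most 3.28 TPM in Hey and between 12.6 and 27.3 TPM in SKOV3, where it was highest in daughter cells. There COL1A1 was at 16.3, LUM at 5.56 and PDGFRB at 5.35 TPM (2.35, 8.84 and 0.280 TPM in SKOV3 parental cells), and COL3A1 was at 0 in all 3 SKOV3 libraries. The immune sum of 5 markers was between 1.69 and 69.5 TPM, with CD68 at between 0.840 and 69.3 TPM and CD3E at 0 in all libraries. The endothelial sum of 3 markers was between 33.4 and 48.8 TPM in Hey, where CDH5 was at least 33.2 TPM, and at most 2.88 TPM in SKOV3. The mitochondrial genome took 2.64%, 12.3% and 7.60% of the TPM in Hey parental cells, PGCCs and daughter cells and 9.17%, 7.37% and 14.8% in SKOV3. Values without mitochondrial genes are given beside the 3 calls that they end, and the part of the marker sums in the results was not tested.

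Windows of 250 bases before and 50 bases after annotated transcription start sites were read from the RefSeq promoter table (GRCh38.p14), which held 14 windows for the 10 genes. They were searched for pairs of inverted GAA units, either head to head (GAANNTTC) or tail to tail (TTCNNGAA), where N is any base and each motif reads the same on both strands. A motif of either kind was found in 13.5% of the 35116 windows of all genes (head to head in 6.77%, tail to tail in 7.74%), in 8 of the 14 windows here and in 7 of the 10 genes. Pairs can overlap, and 3 units in a row were found in 0.490% of all windows and in 3 of the 10 genes, HSPA8, HSP90AA1 and HSPD1. No pair was found in the windows of HSPH1, HSPE1 and BAG3, which says only that these letters are not in these windows.

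The stretches around the motifs are shown because they hold the units that heat shock factors bind, in 7 of the 10 genes. Capitals mark the motif, and each is written 5′ to 3′ on the strand of the gene, with positions in bases from the start site. HSPA1A and HSPA1B each held a single head-to-head pair in near-identical surroundings, and their 250 upstream bases were 93.6% identical over the alignment. The HSPA8 and HSPD1 stretches lie in exons of other annotated transcripts of those genes and are kept short.
HSPA1A (chr6:31815407-31815474, plus strand, -136 to -69): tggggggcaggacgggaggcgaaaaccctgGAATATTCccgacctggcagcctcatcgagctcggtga
HSPA1B (chr6:31827603-31827670, plus strand, -135 to -68): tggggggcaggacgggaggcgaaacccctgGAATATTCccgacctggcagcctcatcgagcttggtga
HSPA8, distal (chr11:123062348-123062372, minus strand, -236 to -212): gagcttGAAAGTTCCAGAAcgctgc
HSPA8, proximal (chr11:123062173-123062197, minus strand, -61 to -37): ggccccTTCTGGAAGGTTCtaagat
HSP90AA1 (chr14:102087075-102087162, minus strand, -118 to -31): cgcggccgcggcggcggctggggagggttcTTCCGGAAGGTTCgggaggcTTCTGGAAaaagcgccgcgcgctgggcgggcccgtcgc
HSPB1 (chr7:76302461-76302528, plus strand, -212 to -145): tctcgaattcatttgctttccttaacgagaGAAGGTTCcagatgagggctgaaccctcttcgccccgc
HSPD1 (chr2:197500062-197500090, minus strand, -250 to -222): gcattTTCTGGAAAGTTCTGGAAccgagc
DNAJB1 (chr19:14518417-14518494, minus strand, -97 to -20): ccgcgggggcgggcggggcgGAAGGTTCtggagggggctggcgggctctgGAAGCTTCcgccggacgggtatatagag

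**Figure D1:**
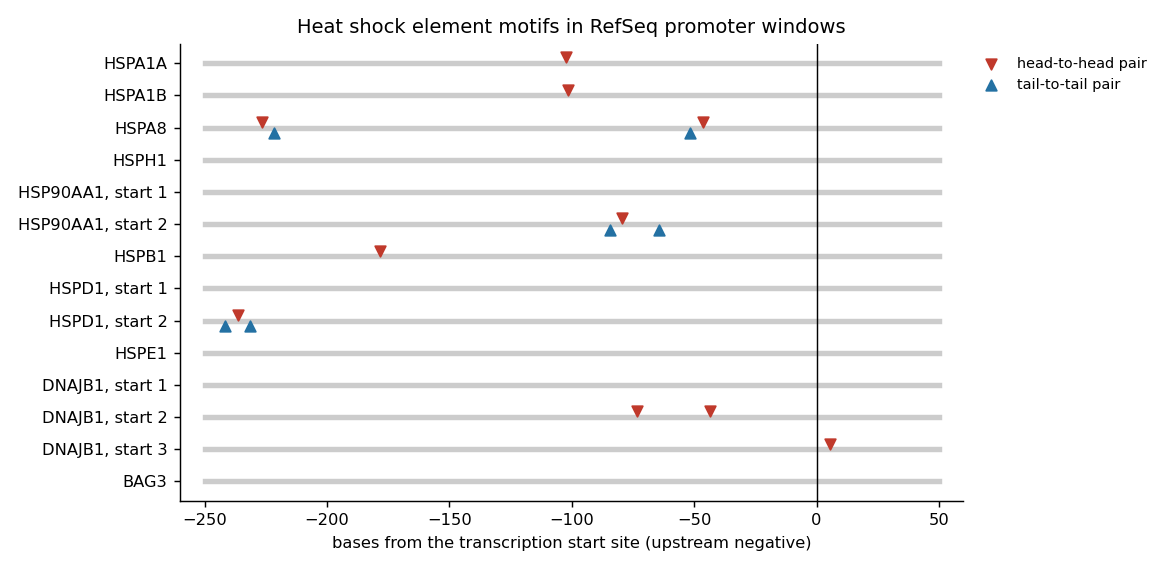
Positions of paired heat shock units in the 14 RefSeq promoter windows of the 10 genes, in bases from the start site (vertical line); red triangles are head-to-head pairs, blue triangles tail-to-tail pairs and grey bars the windows of 250 bases before and 50 after the start. The 3 windows with pairs that overlap are those of HSPA8, HSP90AA1 (start 2) and HSPD1 (start 2), and the windows of HSPH1, HSPE1 and BAG3 hold none.

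HSPD1 and HSPE1 lie head to head on chromosome 2. The RefSeq start of HSPE1 (plus strand) is 105 bases from the nearer RefSeq start of HSPD1 (minus strand) and 539 bases from the other. The run shown for HSPD1, 4 units in a row, lies before that second start, between it and the start of HSPE1. It is thus also upstream of HSPE1, outside the 250 bases searched before the RefSeq start of that gene. The gene spans printed below are from the GENCODE annotation, where HSPE1 begins at 197500140 and HSPD1 extends to 197516737. Distances from those ends differ from the ones given here.

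The levels of the 10 genes ranged from 11.6 TPM (HSPA1B in Hey PGCCs) to 3119 TPM (HSP90AA1 in SKOV3 parental cells). HSPA8, the constitutive cytosolic HSP70, was between 1411 and 2833 TPM and ranked between 47th and 108th among all genes, and HSP90AA1, the inducible cytosolic HSP90, was between 960 and 3119 TPM. Together these genes made up between 60.5% and 73.9% of the summed TPM of the 10. The sum was 0.598%, 0.386% and 0.747% of the table in Hey parental cells, PGCCs and daughter cells, and 0.893%, 0.693% and 0.479% in SKOV3. It was thus lowest in PGCCs in Hey and in daughter cells in SKOV3. With 1 library per condition, no spread can be set against the order of levels within a gene.

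**Figure D2:**
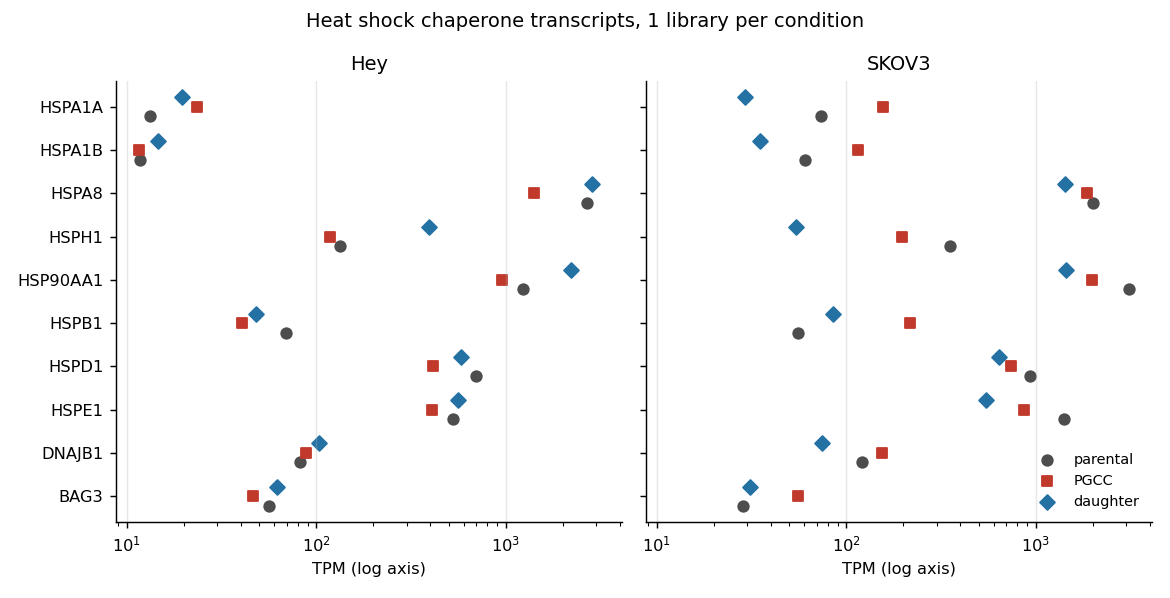
TPM (log axis) of the 10 heat shock chaperone genes in parental cells (circles), PGCCs (squares) and daughter cells (diamonds) of Hey (left) and SKOV3 (right), 1 library per point. HSPH1 has its highest value in Hey daughter cells (395 TPM) and its lowest in SKOV3 daughter cells (54.0 TPM), and HSPA1A and HSPA1B are higher in each SKOV3 library than in any Hey library.

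HSPA1A and HSPA1B encode the stress-inducible cytosolic HSP70 from neighboring genes on chromosome 6 (GRCh38, chr6:31815543-31817946 and chr6:31827738-31830254, plus strand). Their canonical transcripts were 91.2% identical, and 73.8% of the 75-base stretches of HSPA1A also occur in HSPA1B, so the division of reads between them is uncertain. HSPA1A was at 13.3, 23.5 and 19.5 TPM in Hey parental cells, PGCCs and daughter cells and at 73.9, 157 and 29.2 TPM in SKOV3. HSPA1B was at 11.8, 11.6 and 14.6 TPM in Hey and at 60.3, 116 and 35.0 TPM in SKOV3. Both were highest in SKOV3 PGCCs, and no Hey library reached the lowest SKOV3 value. Their sum, which does not depend on the division, was 25.05, 35.1 and 34.2 TPM in Hey and 134, 272 and 64.2 TPM in SKOV3. Set against HSPA8, the sum was 0.932%, 2.49% and 1.21% in Hey and 6.70%, 14.7% and 4.49% in SKOV3, so that the inducible form had its largest share of the 3 in PGCCs in both lines. In Hey the sum was nearly the same in PGCCs and daughter cells, and HSPA8 was lowest in PGCCs (1411 TPM). With a GC trend removed (described below), SKOV3 PGCCs differed from parental cells by 0.35 for HSPA1A, 0.27 for HSPA1B and 0.09 for HSPA8 (log2).

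Differences between states were taken within a line on the log2(TPM + 1) scale, and a gene was called where that difference had a size of 1 or more, which is 2-fold. With 1 library on each side no p-value was computed for them. For the summed HSP70 pair, the difference of PGCCs from parental cells was 0.47 for Hey and 1.02 for SKOV3, that of daughter cells from parental cells 0.43 and -1.05, and that of daughter cells from PGCCs -0.04 and -2.07. The pair was therefore called in SKOV3 in all 3 comparisons and in none in Hey, but with a GC trend removed, as described below, the SKOV3 differences of PGCCs from parental cells were 0.35 for HSPA1A and 0.27 for HSPA1B. Taken singly in SKOV3, HSPA1A was 2.12-fold higher in PGCCs than in parental cells and HSPA1B, just under the call, stood at 1.92 times. Daughter cells of SKOV3 were below PGCCs by 5.37-fold for HSPA1A and 3.30-fold for HSPA1B.

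HSPA8 (chr11:123057489-123063230, minus strand), which folds new and transported proteins in unstressed cells, was at 2687, 1411 and 2833 TPM in Hey and at 2002, 1855 and 1429 TPM in SKOV3. In Hey the PGCC library was the low value, with a difference from parental cells of -0.93 and a difference of daughter cells from PGCCs of 1.01. The latter was called at 2-fold, and was under it with 4 of the alternatives, at 0.95 with median ratio scaling, 0.89 with quantile normalization, 0.93 without mitochondrial genes and 0.97 with the GC trend removed. In SKOV3 no difference reached 2-fold, and the lowest value was in daughter cells.

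HSPH1 (chr13:31134973-31162388, minus strand) encodes HSP110, a large relative of HSP70 that acts as its nucleotide exchange factor. It was at 134, 118 and 395 TPM in Hey parental cells, PGCCs and daughter cells and at 351, 198 and 54.0 TPM in SKOV3. Daughter cells were the highest library in Hey and the lowest in SKOV3. Against parental cells, daughter cells were 2.96-fold higher in Hey (difference 1.56) and 6.50-fold lower in SKOV3 (-2.68), and against PGCCs they were 3.36-fold higher in Hey (1.74) and 3.66-fold lower in SKOV3 (-1.85). HSPH1 was the gene among the 10 that was called in both lines in a comparison, and in opposite directions. Across all 14988 genes, 1.45% were called in opposite directions in daughter cells against parental cells and 2.84% against PGCCs. The 4 calls were kept with the GC trend removed, at 1.57, -2.76, 1.69 and -2.37, and HSPH1 relative to HSPA8 was 4.98%, 8.33% and 14.0% in Hey and 17.5%, 10.7% and 3.78% in SKOV3.

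DNAJB1 and BAG3 encode co-chaperones of HSP70. DNAJB1 (chr19:14514769-14560391, minus strand), the J-domain protein HSP40 that starts the HSP70 cycle, was at 82.4, 88.2 and 104 TPM in Hey and at 121, 155 and 74.7 TPM in SKOV3. Its highest value was 2.08 times its lowest, and 1 difference was called, -1.04 for SKOV3 daughter cells against PGCCs, which was -0.97 with the GC trend removed and -0.93 without mitochondrial genes. BAG3 (chr10:119651380-119677819, plus strand), which releases nucleotide from HSP70 and directs clients to selective autophagy, was at 56.3, 46.3 and 61.9 TPM in Hey and at 28.4, 55.8 and 31.2 TPM in SKOV3. No BAG3 difference between states reached 2-fold, and the nearest was 0.95 for SKOV3 PGCCs against parental cells.

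HSP90AA1 (chr14:102080742-102139699, minus strand) was at 1226, 960 and 2206 TPM in Hey parental cells, PGCCs and daughter cells and at 3119, 1983 and 1442 TPM in SKOV3. Hey daughter cells were above PGCCs by 1.20 and SKOV3 daughter cells below parental cells by a difference of -1.11, and the other differences did not reach 2-fold. The SKOV3 value was -0.74 with quantile normalization. The ratio of HSP90AA1 to the constitutive form HSP90AB1 was 0.708, 0.898 and 1.73 in Hey and 1.36, 0.861 and 0.853 in SKOV3. The inducible form was thus the more abundant in Hey daughter cells and SKOV3 parental cells and the less abundant in the other 4 libraries, in the deposited values. In SKOV3 PGCCs against parental cells HSP90AA1 was at -0.65 and HSP90AB1 at 0.01. With the GC trend removed they were at -0.28 and 0.10.

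HSPD1 and HSPE1 encode HSP60 and its lid HSP10, the mitochondrial chaperonin (chr2:197486584-197516737, minus strand, and chr2:197500140-197503449, plus strand). HSPD1 was at 698, 414 and 581 TPM in Hey and at 929, 739 and 642 TPM in SKOV3, with no difference between states at 2-fold. HSPE1 was at 528, 408 and 556 TPM in Hey and at 1411, 865 and 549 TPM in SKOV3, and the difference of SKOV3 daughter cells from parental cells was -1.36. Both genes were lowest in PGCCs within Hey, and within SKOV3 both were highest in parental cells and lowest in daughter cells. The ratio of HSPE1 to HSPD1 was 0.757, 0.988 and 0.957 in Hey and 1.52, 1.17 and 0.855 in SKOV3. Pseudogenes of HSPE1 summed to at most 0.796% of its TPM, and the readthrough gene HSPE1-MOB4 was between 1.80% and 3.34% of it.

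HSPB1 (chr7:76302673-76304295, plus strand), the small heat shock protein HSP27, holds unfolded clients and also binds actin. It was at 69.1, 40.7 and 48.1 TPM in Hey and at 55.3, 217 and 84.9 TPM in SKOV3. The SKOV3 PGCC library stood above the other 5, at 3.93 times SKOV3 parental cells (difference 1.95) and 2.56 times SKOV3 daughter cells. In Hey PGCCs the difference from parental cells was -0.75. With the GC trend removed, the SKOV3 values were 0.93 against parental cells and -0.51 for daughter cells against PGCCs, and neither reached 2-fold.

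The first question of the design is what differs in PGCCs against parental cells. In Hey, 0 of the 10 genes were called, where 7.67% of all genes were called higher and 5.22% lower (9.70% and 3.95% without mitochondrial genes). The median difference of the 10 was -0.31 beside 0 for all genes. In SKOV3, HSPA1A (1.08) and HSPB1 (1.95) were called higher, 2 of 10, and 0 were called lower, where 9.94% of all genes were called higher and 4.96% lower. The SKOV3 median was 0.12 beside 0.02 for all genes. HSPA8, HSPH1, HSP90AA1, HSPD1 and HSPE1 had values below 0 in both lines and HSPA1A and DNAJB1 above 0 in both, and for none of the 10 did both lines give a call with 1 sign.

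Daughter cells were then compared with parental cells. In Hey, 1 of 10 genes, HSPH1, was called higher and 0 lower, beside 6.31% and 3.73% of all genes (5.46% and 5.04% with median ratio scaling). In SKOV3, 4 of 10 were called lower, HSPA1A (-1.31), HSPH1 (-2.68), HSP90AA1 (-1.11) and HSPE1 (-1.36), and 0 higher, beside 6.34% of all genes called lower and 15.1% higher (8.34% and 11.3% with median ratio scaling). With quantile normalization 3 of 10 were called lower, beside 9.45% of all genes. The median of the 10 was 0.21 in Hey and -0.73 in SKOV3, beside 0.05 and 0.15 for all genes. Of the 10, 8 had opposite signs in the 2 lines. Only HSPD1 was below 0 in both (-0.26 and -0.53) and only BAG3 above 0 in both (0.14 and 0.13), in the deposited values. BAG3 in SKOV3 was at -0.08 with median ratio scaling, -0.04 with quantile normalization and -0.12 with the GC trend removed. HSPA8 and HSPE1 in Hey were each at -0.05 with median ratio scaling, which put 3 genes below 0 in both lines, and HSPE1 was at -0.01 with quantile normalization.

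Daughter cells were also compared with PGCCs. In Hey, 3 of 10 genes were called higher, HSPA8 (1.01), HSPH1 (1.74) and HSP90AA1 (1.20), and 0 lower, beside 9.95% and 8.13% of all genes. In SKOV3, 5 of 10 were called lower, HSPA1A (-2.39), HSPA1B (-1.70), HSPH1 (-1.85), HSPB1 (-1.35) and DNAJB1 (-1.04), and 0 higher, beside 9.25% of all genes called lower and 14.6% higher (11.1% and 11.4% with median ratio scaling). The median of the 10 was 0.43 in Hey and -0.93 in SKOV3, beside 0.03 and 0.12 for all genes. In SKOV3 all 10 values were below 0, from -2.39 to -0.20, except with quantile normalization, where HSPA8 was at 0.10 and HSP90AA1 and HSPD1 were at 0, and in Hey 9 of 10 were above 0. HSPA1A was the gene below 0 in both lines (-0.25 and -2.39), with HSPA1B at 0.31 in Hey and their division uncertain. These 3 comparisons within a line share libraries and are not independent of each other.

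**Figure D3:**
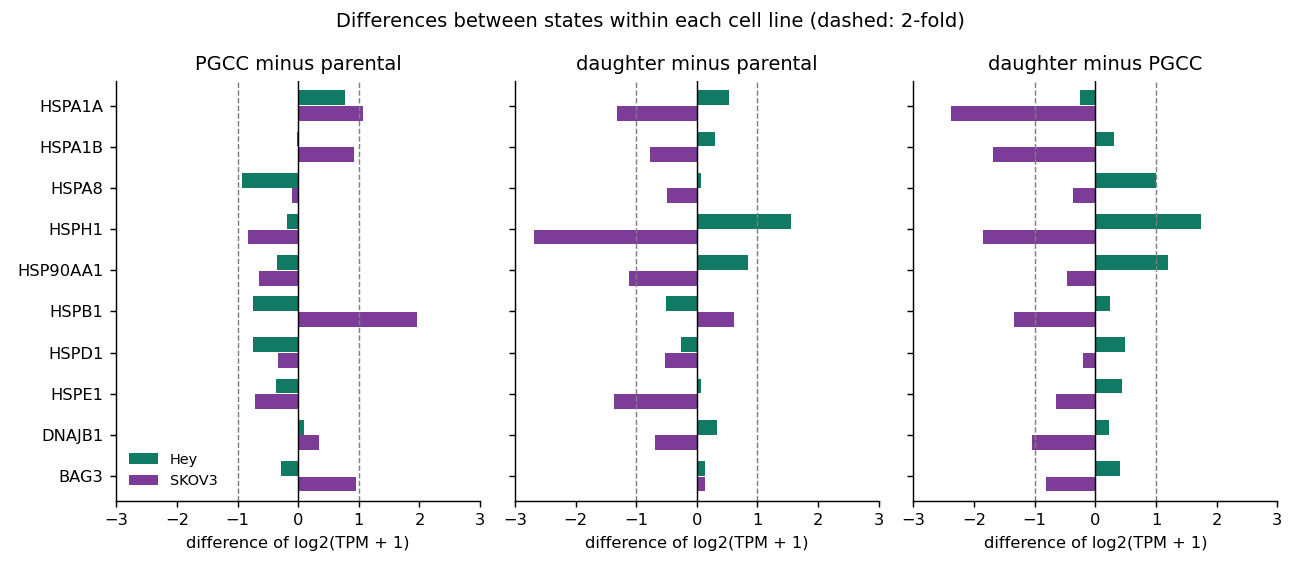
Differences of log2(TPM + 1) between states for the 10 genes in Hey (green) and SKOV3 (purple), 1 library on each side of a difference; dashed lines mark 2-fold. In the right panel all 10 SKOV3 bars lie below 0 and 9 of 10 Hey bars lie above 0; with quantile normalization, not drawn, HSPA8 was at 0.10 in SKOV3.

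The lines are the only repeat of a state, so states were also tested across both lines with limma, with state and cell line as terms (two-sided, Benjamini-Hochberg over 14988 genes). With 2 residual degrees of freedom, the error of a gene combines how far Hey and SKOV3 disagree on it with the error that limma estimates from all genes, for 7.33 degrees of freedom in all. It called 0 of the 10 genes in each of the 3 comparisons, beside 0.02% of all genes in PGCCs against parental cells, 0.0133% in daughter cells against parental cells and 0% in daughter cells against PGCCs. At an unadjusted p under 0.05, 1 of the 10 passed in daughter cells against PGCCs, beside 5.06% of all genes, and 0 in the others, beside 2.73% in PGCCs and 3.39% in daughter cells against parental cells. That gene was HSPA1A, at -1.32 ± 0.56 (SE; limma adjusted p = 0.908), with the same sign in both lines. HSPH1, with opposite signs, was at -0.06 ± 0.91 (SE) in the same comparison (limma adjusted p = 0.999).

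In SKOV3 the PGCC to parental difference moved with the GC content of transcripts, with a Spearman correlation across 13468 genes of 0.72, compared with -0.04 in Hey. The median difference in SKOV3 was -0.53 for genes under 40% GC and 0.93 for genes over 60% GC. The 5 genes of the 10 with a GC content over 50%, HSPB1 (65.3%), HSPA1A (59.8%), HSPA1B (58.8%), BAG3 (56.9%) and DNAJB1 (52.8%), were the 5 with values above 0 in that comparison, and the 5 under 50% (39.3% to 45.3%) were the 5 with values below 0. After a smooth trend on GC content and length was subtracted, 0 of the 10 were called, where 2.23% of all genes were called higher and 2.64% lower. HSPA1A was then at 0.35, HSPA1B at 0.27, BAG3 at 0.43 and DNAJB1 at 0.11, HSPA8 and HSPD1 moved from below 0 to 0.09 and 0.08, and HSPH1 was at -0.40. For daughter cells against PGCCs in SKOV3 the correlation with GC content was -0.46. After subtraction 3 of the 10 genes were called lower, HSPA1A (-1.96), HSPA1B (-1.32) and HSPH1 (-2.37), and 0 higher, beside 7.25% and 10.6% of all genes. For daughter cells against parental cells the correlation was 0.15 in SKOV3, and 5 of 10 genes were called lower after subtraction, HSPA1B (-1.06) being added to the 4. Of all genes, 7.54% were then called lower and 11.1% higher.

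**Figure D4:**
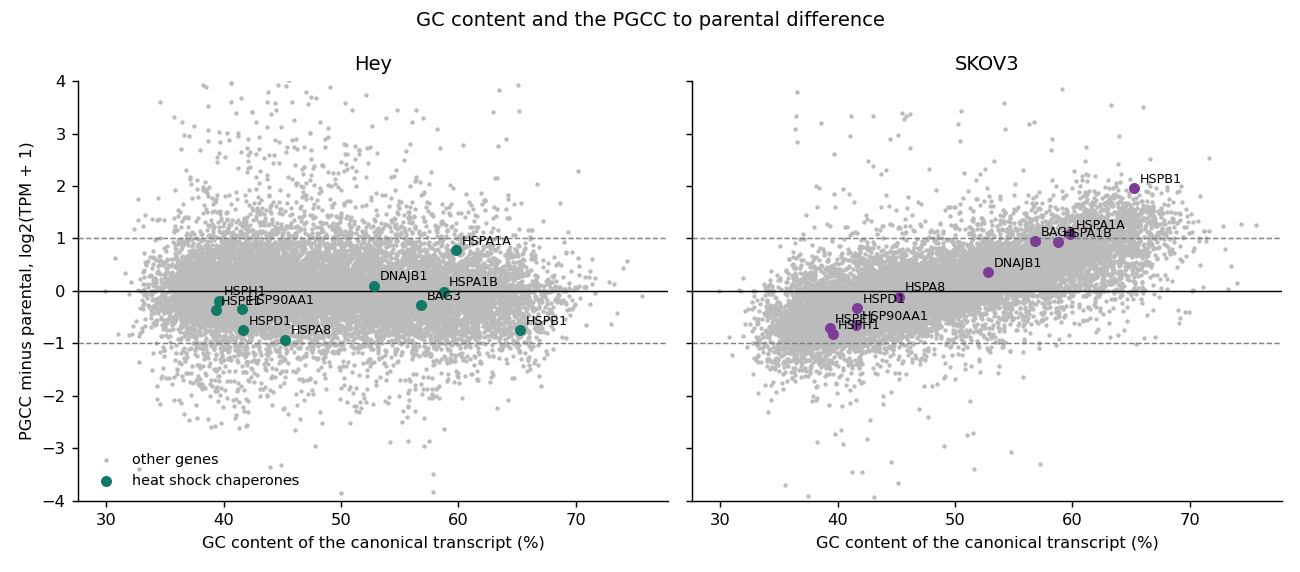
GC content of the canonical transcript (%) against the difference of log2(TPM + 1) between PGCCs and parental cells in Hey (left) and SKOV3 (right); grey points are the other genes of 13468, colored points the 10 heat shock chaperones and dashed lines 2-fold, with 40 genes in Hey and 21 in SKOV3 beyond the axis limit of 4. The cloud is flat in Hey and rises with GC content in SKOV3, where the 10 genes follow it.

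The lines were compared in each state as Hey minus SKOV3, in which the medium differs with the line and cannot be told apart from it. In parental cells 5 of 10 genes were called, all lower in Hey: HSPA1A (-2.39), HSPA1B (-2.26), HSPE1 (-1.42), HSPH1 (-1.38) and HSP90AA1 (-1.35), beside 35.7% of all genes called either way and 24.2% called lower. BAG3 was called higher in Hey with median ratio scaling (1.28), quantile normalization (1.14) and the GC trend removed (1.26), and in the last of these HSP90AA1 (-0.94) and HSPE1 (-0.82) were not called. In PGCCs 5 of 10 were called, also lower in Hey, HSPA1B (-3.20), HSPA1A (-2.69), HSPB1 (-2.39), HSPE1 (-1.08) and HSP90AA1 (-1.04), beside 43% of all genes called either way and 29.6% called lower. HSP90AA1 was at -0.97 without mitochondrial genes, -0.98 with the GC trend removed and -0.74 with median ratio scaling, and HSPE1 was at -0.77 with median ratio scaling and -0.93 with quantile normalization. In daughter cells 2 of 10 were called, HSPH1 higher in Hey (2.85) and HSPA1B lower (-1.20), beside 41.8% of all genes. HSPA1B was at -0.81 with median ratio scaling, -0.89 with quantile normalization and -0.82 with the GC trend removed. The median of all genes was itself between -0.29 and -0.38 in the 3 states. With median ratio scaling, which brought it to between -0.08 and -0.01, the calls in daughter cells were 4 higher and 0 lower, beside 18.2% and 21.4% of all genes.

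Other genes of the chaperone network were described from 11 lists with 116 genes, of which 106 had a mean of at least 1 TPM. In PGCCs against parental cells 4 were called higher and 5 lower in Hey, beside 7.67% and 5.22% of all genes, and 5 higher and 5 lower in SKOV3, beside 9.94% and 4.96%. With the GC trend removed, 1 of the related genes that had a GC value was called in SKOV3, HSCB at -1.09. Of all genes, 2.23% were then called higher and 2.64% lower. HSPB11, at -1.25 in the deposited values, had no GC value and was not assessed. In daughter cells against parental cells the counts were 3 and 4 in Hey, beside 6.31% and 3.73% of all genes, and 6 and 4 in SKOV3, beside 15.1% and 6.34%. Against PGCCs they were 11 and 8 in Hey, beside 9.95% and 8.13%, and 9 and 6 in SKOV3, beside 14.6% and 9.25%. FKBP5, an HSP90 co-chaperone that tempers steroid receptors, was the gene of the 106 with calls of 1 sign in Hey and SKOV3 in a comparison. It was at 10.7, 4.01 and 13.0 TPM in Hey and at 6.88, 5.71 and 16.7 TPM in SKOV3, higher in daughter cells than in PGCCs by 1.49 and 1.40.

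Among HSP90 co-chaperones, the median difference of daughter cells from PGCCs was 0.56 in Hey and -0.54 in SKOV3, beside 0.03 and 0.12 for all genes. In Hey 4 of 14 were called higher and 0 lower, beside 9.95% and 8.13% of all genes. In SKOV3 1 was called higher and 3 lower, beside 14.6% and 9.25%. The 3 were STIP1, CDC37 and NUDC, at -0.95, -0.69 and -0.89 with the GC trend removed. FKBP4 (-1.02) and SUGT1 (-1.14) were then called lower instead, beside 7.25% of all genes called lower. STIP1, which links HSP70 to HSP90, was at 188, 135 and 381 TPM in Hey and at 347, 365 and 180 TPM in SKOV3, and NUDC, an HSP90 co-chaperone in dynein regulation, at 145, 74.2 and 178 TPM in Hey and at 127, 194 and 87.4 TPM in SKOV3. Both were highest in daughter cells in Hey and lowest in daughter cells in SKOV3. PTGES3, the co-chaperone p23, was at 658, 399 and 594 TPM in Hey and at 1297, 568 and 572 TPM in SKOV3, with a PGCC to parental difference of -0.72 and -1.19, the latter -0.68 with the GC trend removed. The 8 subunits of the TRiC/CCT chaperonin, which folds actin and tubulin, had 0 calls in each of the 6 comparisons within a line. Their median for PGCCs against parental cells stood at -0.40 in Hey and -0.34 in SKOV3, beside 0 and 0.02 for all genes. CCT6A was at -0.43 and -0.47 and CCT2 at -0.37 and -0.56. With the GC trend removed, the 8 values in SKOV3 were between -0.20 and 0.11.

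On the list of small heat shock proteins other than HSPB1, 3 of 9 genes had a mean of at least 1 TPM. In PGCCs against parental cells 2 were called higher in Hey, HSPB8 and CRYAB, neither of which was called in SKOV3. There 1 listed gene was called lower, HSPB11 (-1.25), whose place in this protein family was not examined. Of all genes, 7.67% were called higher and 5.22% lower in Hey in this comparison, and 9.94% and 4.96% in SKOV3. HSPB8, a partner of BAG3, was at 0.0592, 3.79 and 0 TPM in Hey and at 5.35, 7.23 and 17.6 TPM in SKOV3, and CRYAB, the alpha B-crystallin, at 0.198, 3.54 and 0 TPM in Hey and at 25.9, 16.6 and 58.5 TPM in SKOV3. Both were present above 1 TPM in Hey only in PGCCs, whereas in SKOV3 they were highest in daughter cells. Among 38 J-domain proteins, 2 were called higher and 2 lower in Hey PGCCs against parental cells, and 0 and 2 in SKOV3, beside the same shares of all genes. DNAJB2, a neuronal and muscle chaperone that sorts clients to the proteasome, had the largest mean difference of the list, 1.56 and 0.85 (0.01 in SKOV3 with the GC trend removed). DNAJC9, a histone chaperone, was at -1.22 and -0.66 (-0.31 in SKOV3 with the GC trend removed). Of 13 mitochondrial chaperones and proteases, 0 were called higher and 2 lower in Hey PGCCs against parental cells, and 3 and 1 in SKOV3, again beside these shares. The matrix protease LONP1 was at 32.6, 13.3 and 47.9 TPM in Hey and at 32.2, 85.8 and 53.9 TPM in SKOV3. HSPA9, the matrix HSP70, had values of -0.71 and -0.43 in PGCCs against parental cells (-0.12 in SKOV3 with the GC trend removed).

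Of the 3 other HSP90 genes, TRAP1, the mitochondrial HSP90, was called in PGCCs against parental cells, lower in Hey (-1.18) and higher in SKOV3 (1.13, or 0.58 with the GC trend removed). The HSP70 family list, with 9 of 12 genes measured, had 0 calls in PGCCs against parental cells in either line. HSPA13 (-0.19 and -0.99, the latter -0.27 with the GC trend removed) and HSPA9 had the largest mean differences. HSPA6, a strictly stress-inducible HSP70, was at most 0.770 TPM in all 6 libraries. Among BAG proteins and nucleotide exchange factors, with 9 genes, 0 were called in PGCCs against parental cells in either line. BAG2 was at -0.75 and -0.64, the latter -0.13 with the GC trend removed. Prefoldin, with 6 genes, had 0 calls in Hey and 1 in SKOV3, VBP1 at -1.02 (-0.33 with the GC trend removed). The list of other heat-inducible genes, with 15 of 16 measured, had 3 called higher in Hey PGCCs and 0 in SKOV3. The 3 were HSPB8, CRYAB and DNAJB4, which are also counted in the small heat shock protein and J-domain lists. For PGCCs against parental cells, 7.67% of all genes were called higher and 5.22% lower in Hey, and 9.94% and 4.96% in SKOV3.

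**Figure D5:**
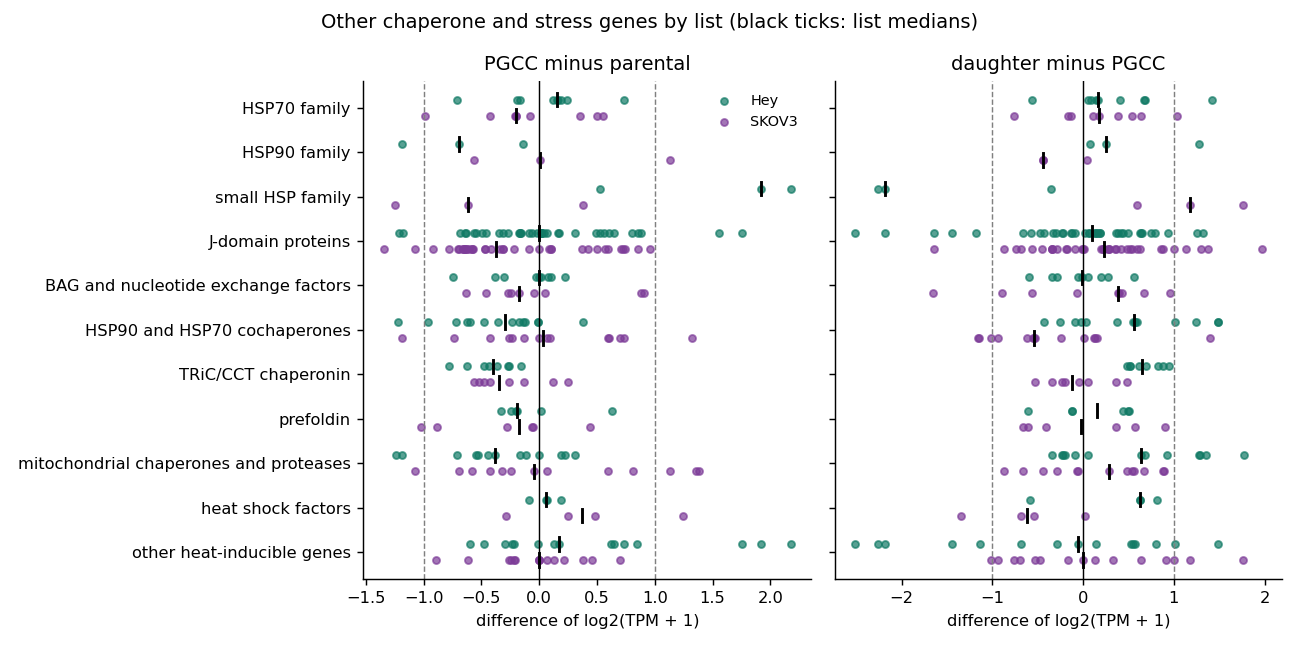
Differences of log2(TPM + 1) for the 106 other chaperone and stress genes with a mean of at least 1 TPM, by list, for PGCCs minus parental cells (left) and daughter cells minus PGCCs (right); points are genes in Hey (green) and SKOV3 (purple), black ticks are list medians, dashed lines mark 2-fold, and a gene can be in more than 1 list. In the right panel the median of the HSP90 and HSP70 cochaperones lies at 0.56 in Hey and -0.54 in SKOV3.

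Of the heat shock factors, HSF1 was at 47.9, 50.1 and 77.9 TPM in Hey parental cells, PGCCs and daughter cells and at 31.3, 75.7 and 51.8 TPM in SKOV3, and it was called in 1 comparison, SKOV3 PGCCs against parental cells (1.25, or 0.31 with the GC trend removed). HSF2 was at 17.9, 20.5 and 13.3 TPM in Hey and at 37.4, 30.4 and 30.8 TPM in SKOV3, with no call. HSBP1, which binds HSF1, was between 28.7 and 69.9 TPM. HSF4 was at most 2.33 TPM and was called lower in SKOV3 daughter cells than in PGCCs (-1.35, or -0.71 with the GC trend removed).

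Within the 10 genes, the pair with the most similar profile over the 6 libraries was HSPA1A and HSPA1B (Pearson r = 0.96 on log2(TPM + 1)), which share sequence, followed by HSPD1 and HSPE1 (0.88) and HSP90AA1 and HSPE1 (0.87). BAG3 was the least similar, with a negative r against HSPE1 (-0.46) and HSPD1 (-0.37). The 6 points share 3 states and 2 lines, so these values are descriptions. Among 8568 other genes with a mean of at least 10 TPM, the 5 most similar to the mean of the 10 genes were SRP68 (0.99), FTSJ3 (0.98), VAV2 (0.98), COMMD9 (0.97) and LSM7 (0.97). The 5 most similar to the summed HSP70 pair were DAZAP2, NDUFB11, PINK1, HAS3 and CAPRIN2, with r between 0.99 and 1.00.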

How the data were processed

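RNA of 6 libraries was sequenced, and the authors ran fastp and then salmon 0.14.1 against hg38 transcripts, and deposited TPM values, 1 per gene symbol and library; the step from transcripts to symbols is not given in the sources used here. TPM values were used as deposited. Differences of log2(TPM + 1) were called at 1, and limma 3.58.1 (R 4.3.3) was fitted with eBayes and an intensity trend to the 14988 genes whose mean TPM was 1 or more. GC content and length came from GENCODE release 44 canonical transcripts (13468 genes, all 10 members); the trend was a lowess (fraction 0.3, 2 passes; statsmodels 0.14.6). Both steps were tested on simulated data. Named genes were all members, and of each list those called in both lines or the 2 largest mean differences, except where a pattern or an extreme is stated: NUDC, STIP1, CDC37, FKBP4, SUGT1, HSPB11, LONP1, HSPA6, HSBP1 and HSCB were named after their values were seen. The members and lists were chosen with earlier results of these data known. Other steps used Python 3.11.15, numpy 2.4.6 and pandas 2.3.3. Alternatives were other pseudocounts, scalings, filters and thresholds.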

Additional observations from a re-analysis of the deposited data

Results flagged for a closer look

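Values called at 2-fold in opposite directions in Hey and SKOV3 were picked out among the 10 heat shock chaperones and the 106 related genes. The difference between the lines was not tested, since each value is 1 library against 1 library. In PGCCs against parental cells, LONP1 was at -1.24 in Hey and 1.39 in SKOV3 and TRAP1, the mitochondrial HSP90, at -1.18 and 1.13, and with the GC trend removed the SKOV3 values were 0.47 and 0.58. In daughter cells against parental cells, HSPH1 was at 1.56 in Hey and -2.68 in SKOV3. In daughter cells against PGCCs, HSPH1 (1.74 and -1.85), STIP1 (1.49 and -1.01) and NUDC (1.25 and -1.14) were higher in Hey and lower in SKOV3. The reverse was found for HSPB8 (-2.26 in Hey and 1.17 in SKOV3), CRYAB (-2.18 and 1.76), DNAJB9 (-2.18 and 1.97) and DNAJB4 (-1.44 and 1.00). HSPB8 and CRYAB were at only 3.79 and 3.54 TPM in Hey PGCCs and at 0 in Hey daughter cells. The size of their Hey differences therefore depends on the pseudocount of 1. With the GC trend removed, the SKOV3 values of DNAJB4, STIP1 and NUDC were 0.26, -0.95 and -0.89. These are 2, 1 and 7 of 116 genes in the 3 comparisons, beside 1.23%, 1.45% and 2.84% of all genes.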

How the results depend on the processing

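No called value of the 10 genes changed sign under the alternatives that were run. The number of the 10 called with median ratio scaling was 1 in Hey PGCCs against parental cells (HSPA8, -1.01), 3 for Hey against SKOV3 PGCCs and 4 for the daughter cells of the lines. Of all genes, 7.31% and 6.16% were then higher and lower in the first, 18.0% and 22.9% in the second and 18.2% and 21.4% in the third. This scaling moved the median of all genes from 0.15 to -0.02 in SKOV3 daughter cells against parental cells. With the GC and length trend removed, 0 of the 10 were called in SKOV3 PGCCs against parental cells. The number was 3 in SKOV3 daughter cells against PGCCs and 4 for the daughter cells of the lines. For all genes, the shares higher and lower were 2.23% and 2.64% in the first of these comparisons. They were 10.6% and 7.25% in the second and 18.5% and 20.2% in the third. Of the related genes, 1 was called in SKOV3 PGCCs. With HSPA1A and HSPA1B summed, 1 was called for the daughter cells of the lines, beside 12.3% of all genes called higher and 29.5% lower in Hey. A pseudocount of 5 left 5 related genes called in Hey PGCCs against parental cells, 1 in Hey daughter cells against parental cells, and 11 and 9 in daughter cells against PGCCs in Hey and SKOV3. The shares of all genes fell as well, to 2.73% higher and 2.76% lower in the first and 2.28% and 1.25% in the second. In daughter cells against PGCCs they were 5.37% and 3.30% in Hey and 7.78% and 5.22% in SKOV3. At a 1.5-fold threshold, members called were 4 and 7 in PGCCs against parental cells (Hey, SKOV3), 2 and 7 in daughter cells against parental cells, and 8 and 6 for Hey against SKOV3 in PGCCs and daughter cells; related genes called were 31 and 40, 24 and 37, and 43 and 40 in the 3 comparisons in that order. Of all genes, 17.1% and 14.4% were then higher and lower in Hey PGCCs against parental cells, and 22.9% and 16.3% in SKOV3 PGCCs. For daughter cells against parental cells the shares were 17.2% and 10.7% in Hey and 28.1% and 13.6% in SKOV3. For daughter cells against PGCCs they were 22.01% and 17.2% in Hey and 27.97% and 18.7% in SKOV3. For Hey against SKOV3, 21.3% and 42.3% of all genes were higher and lower in PGCCs and 19.5% and 43.2% in daughter cells. At 3-fold, members called were 1 in SKOV3 PGCCs against parental cells, 0 and 1 in daughter cells against parental cells, 1 and 3 in daughter cells against PGCCs, and 2, 3 and 1 between the lines in parental cells, PGCCs and daughter cells. Related genes called were 3 and 0, 1 and 0, and 6 and 4, with between 1.01% and 6.89% of all genes called in a direction in the comparisons within a line. For Hey against SKOV3, 6.29% and 12.6% of all genes were then higher and lower in parental cells, 7.66% and 16.3% in PGCCs and 6.94% and 17.2% in daughter cells. Pseudocounts of 0.1 and 5, the filters on mean TPM and the limma alternatives, each with 0 members called, moved no count of members by over 1.5 times. The limma fit pairs the states by cell line, and without the cell line term it also called 0 members. No library could be left out within a line, since each state has 1. TPM values hold no depth per gene, so small differences cannot be set against counting error.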
